A study of Mus musculus with 2 samples.

Results

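Peripheral myelin is the membrane sheath that Schwann cells wrap around the larger axons of nerves and ganglion roots. A set of 9 genes was followed here, namely Mbp, Pmp22, Mag, Prx, Mal, Gjb1, Ncmap and Ugt8a, whose products build or maintain that sheath, and Egr2, the transcription factor that drives it. The genes were taken by symbol from the deposited count tables, and all 9 were found, each on 1 of 23282 rows. All 9 passed the minimum of 20 counts summed over both libraries. The RNA came from dorsal root ganglia, where sensory neuron cell bodies lie together with satellite glia, Schwann cells, vessels and connective tissue. One group was wild-type mice whose skin was dried with acetone, ether and then water (AEW), a treatment used to produce itch, over 5 consecutive days. The other was wild-type mice given water. Ganglia were taken on day 6, and RNA of 6 mice per group was pooled, read here as 1 pool and 1 library each. Neither the age, the sex nor the spinal level of the ganglia is stated in the labels. The comparison asks how the ganglia differ between dry-skin mice and their controls.

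Compact myelin is a stack of Schwann cell membrane held together by proteins on both faces, with Mbp on the cytoplasmic ones. Its lipids are rich in cholesterol and in galactosylceramide, which the enzyme made from Ugt8a synthesises. Channels of cytoplasm that remain within the sheath hold gap junctions and adhesion proteins, and the outer surface is anchored to the basal lamina. Egr2 acts with Sox10 and Pou3f1 to switch on these genes during development, and it remains necessary for keeping the sheath in the adult. When a nerve is cut, Schwann cells lose Egr2 and the myelin transcripts and raise Jun, Sox2 and Ngfr. Mbp, Mag, Mal and Ugt8a are also made by oligodendrocytes, the myelinating cells of the central nervous system, and Egr2 is also an immediate early gene of other cells.

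The AEW library held 14376228 counts and the control library 9333882, a ratio of 1.54. Values were compared after scaling by the trimmed mean of M values (TMM), so that equal expression gives 1.64 times as many reads in the AEW library. Each group had 1 library, so no p-value was computed. Each interval below is an exact 95% interval for counting error only, and an effect of treatment cannot be told apart from a difference between the pools, the dissections or the library preparations. A gene was called higher or lower when its scaled ratio was at least 1.5-fold and its interval excluded 1. Although the labels give neurons as the cell type, markers of other cells were present and unequal. The summed level of 17 keratinocyte markers was 1056 scaled CPM (counts divided by the scaled library size, times 10 to the power of 6) in the AEW library and 46.5 CPM in the control, and that of 14 macrophage markers was 339 CPM in the AEW library and 892 CPM in the control. Pan-neuronal markers summed to 12280 CPM in the AEW library and 7622 CPM in the control. Perineurial and fibroblast markers summed to 5204 CPM in the AEW library and 9007 CPM in the control, and red blood cell markers to 33550 CPM in the AEW library and 56130 CPM in the control. Among the keratinocyte markers, Krt5 and Krt14 had 1336 and 1218 counts in the AEW library and 1 each in the control, where Ivl and Dsg3 were at 0. The part of these differences in the values below was not tested.

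Every one of the 9 myelin genes had a TMM-scaled ratio below 1, although Mag and Prx were above 1 under satellite glia and other peripheral myelin gene scaling. Ugt8a, Egr2, Mal and Ncmap were called lower in the AEW library, none was called higher, and Mbp, Pmp22, Gjb1, Mag and Prx were not called. Under satellite glia scaling Ugt8a alone was called, and under other peripheral myelin gene scaling Ugt8a and Egr2 were. Over all 14854 measured genes, 14.9% were called lower, 17.3% were called higher and 47.8% had a ratio below 1. The median log2 ratio was -0.53 over the 9 genes and 0.03 over all measured genes. Together the 9 genes took 128961 counts in the AEW library and 107941 in the control, which is 0.897% of AEW counts (0.892 to 0.902, Clopper-Pearson) and 1.16% of control counts (1.15 to 1.16). Most of these counts belonged to Mbp and Pmp22. In a bulk sample, fewer myelinating cells, less RNA per cell and more RNA from other cells cannot be told apart.

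**Figure D1:**
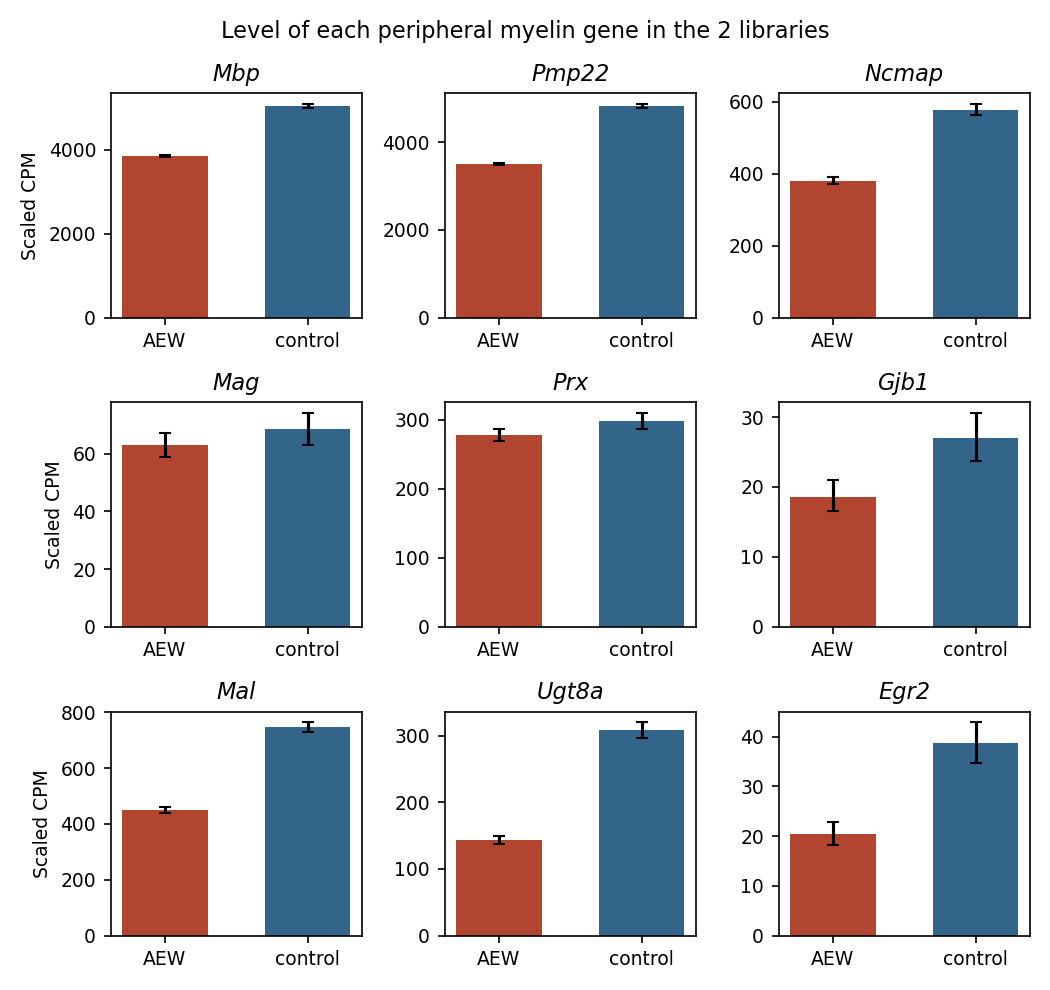
Level of each of the 9 genes in scaled CPM, with the AEW library on the left and the control on the right of each panel, a linear axis from 0 and exact 95% Poisson bars for counting error. The AEW bar is the shorter one in every panel, with error bars that overlap for Mag and nearly meet for Prx.

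Differences of this size were common between the libraries. When a call also had to lie more than 3 scaled median absolute deviations from the 500 measured genes nearest in mean level, 0.498% of all measured genes were called lower and 0 of the 9 genes were. The distances of the myelin genes, in those deviations, were -2.42 for Ugt8a and -1.79 for Egr2, and they lay between -1.36 and -0.25 for the other 7.

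**Figure D2:**
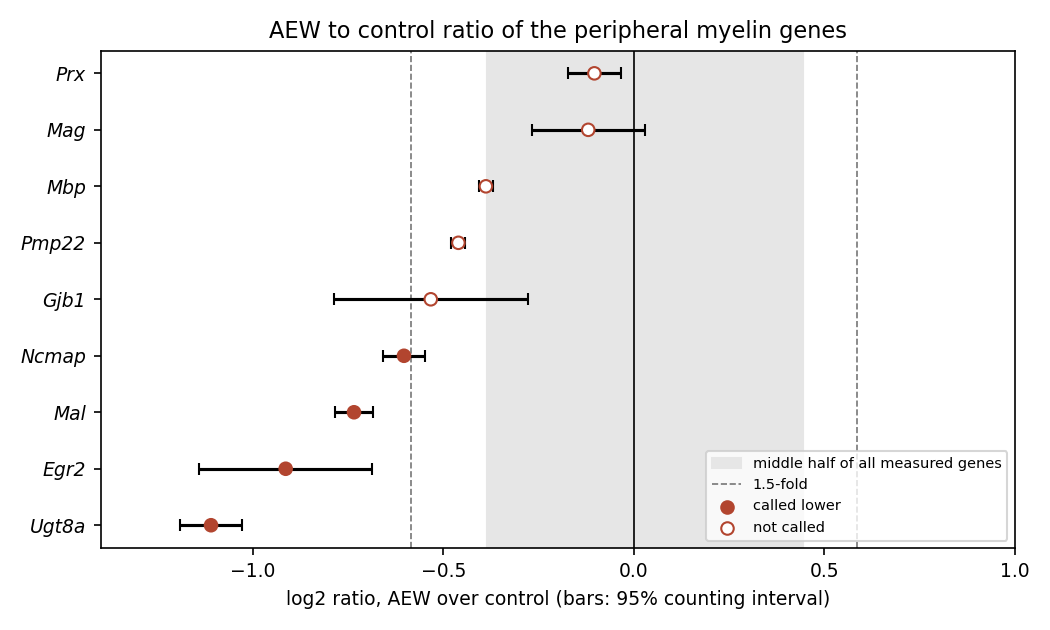
Log2 ratio of AEW over control for the 9 genes, with 95% counting intervals, filled points for called genes, dashed lines at 1.5-fold and a grey band between the quartiles of all measured genes (-0.39 to 0.44). Prx and Mag lie inside the band, Mbp at its edge and the other 6 below it.

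Mbp and Pmp22 are proteins of compact myelin. Mbp, myelin basic protein, binds the cytoplasmic membrane faces (ENSMUSG00000041607.17, chromosome 18, 82475146 to 82585637, plus strand, mm10). It had 57048 counts, or 3849 CPM, in the AEW library, against 45621 counts, or 5039 CPM, in the control. The ratio was 0.76 (0.755 to 0.773), short of the threshold, although counting error was small at this depth. Pmp22, a tetraspan membrane protein whose duplication causes the commonest inherited Charcot-Marie-Tooth neuropathy in people (ENSMUSG00000018217.12, chromosome 11, 63128982 to 63159547, plus strand), had 51890 counts, or 3501 CPM, in the AEW library, against 43627 counts, or 4818 CPM, in the control. Its ratio of 0.73 (0.717 to 0.736) was below that of Mbp, with a ratio between the 2 ratios of 0.951 (0.935 to 0.968). Both were thus lower than the TMM scaling predicts for equal expression, by 1.31-fold and 1.38-fold, and neither was called.

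Ncmap encodes a small membrane glycoprotein of the non-compacted parts of peripheral myelin (ENSMUSG00000043924.16, chromosome 4, 135369576 to 135398227, minus strand). It had 5633 counts, or 380 CPM, in the AEW library, against 5229 counts, or 578 CPM, in the control. It was 1.52-fold lower in AEW (1.46 to 1.58), just past the threshold, whereas Gjb1, at 1.45-fold (1.21 to 1.73), fell just short of it. Total count scaling and an interval required to exclude 1.5-fold each ended the Ncmap call. Gjb1 encodes connexin 32, which forms gap junctions between layers of one Schwann cell and is mutated in X-linked Charcot-Marie-Tooth neuropathy (ENSMUSG00000047797.14, chromosome X, 101376378 to 101385629, plus strand). It had 276 counts, or 18.6 CPM, in the AEW library, against 244 counts, or 26.9 CPM, in the control, the fewest counts among the 9 genes and so the widest interval. After correction for GC content Gjb1 was called lower, at a log2 ratio of -0.68.

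Mag and Prx were the members closest to equal expression. Mag, myelin-associated glycoprotein, sits on the innermost Schwann cell membrane facing the axon (ENSMUSG00000036634.15, chromosome 7, 30899176 to 30914873, minus strand). It had 934 counts, or 63.0 CPM, in the AEW library, against 620 counts, or 68.5 CPM, in the control, a ratio of 0.92 (0.831 to 1.02) whose interval includes 1. Prx, periaxin, lies on the opposite, outer surface and links the sheath to dystroglycan (ENSMUSG00000053198.13, chromosome 7, 27499324 to 27520214, plus strand). It had 4110 counts, or 277 CPM, in the AEW library, against 2698 counts, or 298 CPM, in the control, a ratio of 0.93 (0.886 to 0.977). Their ratios could not be separated by counting error, with a ratio between them of 0.989 (0.884 to 1.11). Scaling on satellite glia markers put both above 1, at log2 ratios of 0.23 for Mag and 0.24 for Prx, neither called.

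Mal encodes a proteolipid that gathers lipid-rich membrane for transport to the sheath, in Schwann cells as in oligodendrocytes and epithelia (ENSMUSG00000027375.14, chromosome 2, 127633226 to 127656695, minus strand). It had 6649 counts, or 449 CPM, in the AEW library, against 6760 counts, or 747 CPM, in the control. It was 1.66-fold lower in AEW (1.61 to 1.72). The raw count was lower in the AEW library, the deeper of the pair, as it was for Ugt8a and Egr2 and for no other member.

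Ugt8a encodes ceramide galactosyltransferase, which makes galactosylceramide, the main glycolipid of myelin (ENSMUSG00000032854.12, chromosome 3, 125865271 to 125938619, minus strand). It had 2117 counts, or 143 CPM, in the AEW library, against 2792 counts, or 308 CPM, in the control. It was 2.16-fold lower in AEW (2.04 to 2.29), the largest difference among the 9 genes, and 8 of the 500 measured genes nearest to it in level had a lower ratio. Its longest transcript has 38.0% GC, the lowest of the members, whose other values run from 48.6% to 57.7%, beside a median of 49.8% over measured genes. After GC correction the log2 ratio was -0.75 in place of -1.11, still called lower, and Egr2 then had the larger difference at -0.95.

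Egr2 encodes the zinc-finger factor also named Krox20 (ENSMUSG00000037868.15, chromosome 10, 67535475 to 67542188, plus strand). It had 304 counts, or 20.5 CPM, in the AEW library, against 350 counts, or 38.7 CPM, in the control. It was 1.88-fold lower in AEW (1.61 to 2.21). The related immediate early genes Egr1 and Egr3 had ratios of 0.87 (0.765 to 0.990) and 0.71 (0.575 to 0.889) and were not called. Because Egr2 is also transcribed in other cells of the ganglion, its count cannot be assigned to Schwann cells in these data.

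The upstream sequences of the 4 genes called lower are given with that of Prx, the member nearest to equal expression, because Egr2 encodes the shared regulator and its binding letters can be looked for in them. The sequences are the 250 bases before the start site nearest to that of the principal GENCODE transcript, from RefSeq on GRCm38.p6, the assembly behind mm10, written 5′ to 3′ in the direction of transcription. The table used held 8 of the 9 genes, all but Mbp. Capitals mark matches on either strand to the EGR letters GNGTGGGNG, the SOX letters ACAAAG and the TEAD letters GGAATG.
Ugt8a (chr3:125938653-125938902, minus strand): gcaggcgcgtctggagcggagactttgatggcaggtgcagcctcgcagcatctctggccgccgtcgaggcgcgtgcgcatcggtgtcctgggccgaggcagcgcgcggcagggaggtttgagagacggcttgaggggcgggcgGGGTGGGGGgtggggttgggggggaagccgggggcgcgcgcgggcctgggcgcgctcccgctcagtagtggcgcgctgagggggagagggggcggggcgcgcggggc
Egr2 (chr10:67537619-67537868, plus strand): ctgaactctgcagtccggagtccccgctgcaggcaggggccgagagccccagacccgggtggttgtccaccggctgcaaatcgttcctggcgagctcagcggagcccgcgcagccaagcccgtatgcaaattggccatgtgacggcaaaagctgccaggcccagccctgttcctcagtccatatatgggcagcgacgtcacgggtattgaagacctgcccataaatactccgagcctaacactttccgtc
Mal (chr2:127656696-127656945, minus strand): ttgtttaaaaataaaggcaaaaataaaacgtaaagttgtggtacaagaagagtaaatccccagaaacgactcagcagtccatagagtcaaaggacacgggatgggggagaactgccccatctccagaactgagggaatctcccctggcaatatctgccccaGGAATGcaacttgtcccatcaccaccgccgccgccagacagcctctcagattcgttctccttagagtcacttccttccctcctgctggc
Ncmap (chr4:135398228-135398477, minus strand): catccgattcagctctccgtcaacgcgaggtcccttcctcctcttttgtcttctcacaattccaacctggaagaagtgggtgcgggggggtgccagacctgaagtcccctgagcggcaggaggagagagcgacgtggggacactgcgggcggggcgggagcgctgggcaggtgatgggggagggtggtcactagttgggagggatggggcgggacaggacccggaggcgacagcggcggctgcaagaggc
Prx (chr7:27499074-27499323, plus strand): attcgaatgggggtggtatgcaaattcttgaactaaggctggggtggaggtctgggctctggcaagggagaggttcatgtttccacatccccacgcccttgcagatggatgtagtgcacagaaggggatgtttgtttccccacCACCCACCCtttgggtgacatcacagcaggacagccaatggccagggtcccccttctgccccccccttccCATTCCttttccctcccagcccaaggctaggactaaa

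The EGR letters were found once in the Ugt8a window and once in that of Prx, both starting at base -107, and in no such window of Egr2, Mal or Ncmap. They occur in 12.7% of the 32536 distinct windows used, which leave out chromosome 18. Ugt8a, with the lowest ratio of the 9 genes, and Prx, with the highest, thus both held a match. The TEAD letters, which occur in 12.6% of windows, were found in Mal at base -89, in Prx at -37 and in the window of Pmp22 (not shown) at -173. The SOX letters, at 16.5% of windows, were found in the nearest windows of Mag at -126 and Gjb1 at -176. A match of letters is not a binding site, and enhancers outside these windows were not examined.

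The 9 genes did not share 1 ratio. Of 36 pairs, 29 had a ratio between their ratios whose counting interval excluded 1, a comparison that needs no library scaling but was not corrected for GC content. In order from the lowest ratio, Ugt8a, Egr2, Mal, Ncmap, Gjb1, Pmp22, Mbp, Mag and Prx, neighbours differed beyond counting error in 3 of 8 cases, namely Mal below Ncmap, Pmp22 below Mbp and Mbp below Mag. Ugt8a stood at 0.498 times Prx (0.462 to 0.536). The pairs that were not separated were Ugt8a with Egr2, Egr2 with Mal, Gjb1 with each of Mal, Ncmap, Pmp22 and Mbp, and Mag with Prx. After GC correction the log2 ratios of Ugt8a, Mal, Ncmap and Gjb1 lay between -0.75 and -0.68, with Egr2 below them at -0.95, so the order and several of these separations depend on that correction.

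Other genes of the same sheath were set beside the 9. Of 30 further peripheral myelin genes, all measured, 3 were called lower, 1 higher and 26 were not called, and 22 had a ratio below 1. The shares over all measured genes were 14.9% lower, 17.3% higher and 47.8% with a ratio below 1. Their median log2 ratio was -0.24, against -0.53 for the 9 genes, and under satellite glia scaling it was 0.11, where the median of all measured genes was 0.38. Drp2, a partner of periaxin, had a ratio of 0.71 (0.676 to 0.738). Pmp2, a fatty acid binding protein of peripheral myelin, had a ratio of 1.14 (1.06 to 1.23). The lowest in this list was Aspa, which releases acetate from N-acetylaspartate, with 296 counts in the AEW library and 593 in the control, 3.28-fold lower in AEW (2.85 to 3.78). Gpm6b, a membrane proteolipid, was 1.62-fold lower (1.54 to 1.71) and Mpp6, a scaffold protein of the Schwann cell membrane, was 1.64-fold lower (1.46 to 1.85). Cadm4, an adhesion protein that contacts the axon, was 1.60-fold higher (1.42 to 1.80), and after GC correction none of the 30 was called higher.

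**Figure D3:**
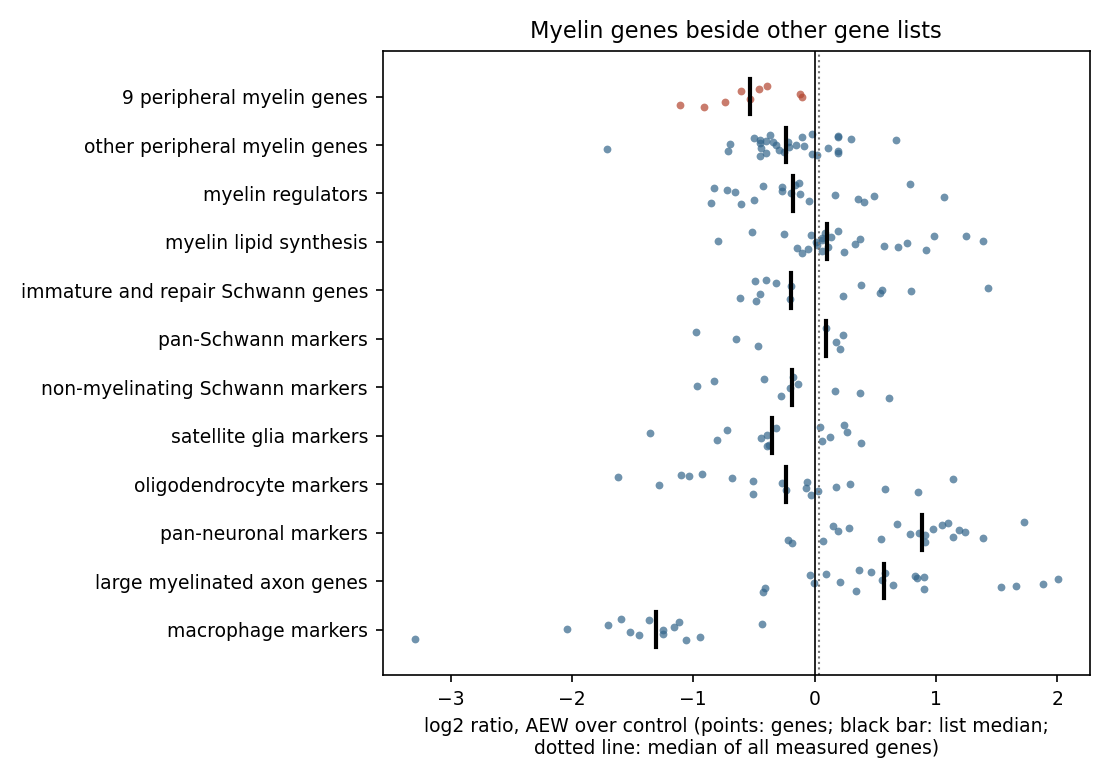
Log2 ratio of AEW over control for every measured gene of each list, with a black bar at the list median and a dotted line at the median of all measured genes. The bar of the 9 myelin genes lies at -0.53, left of those of the other Schwann cell lists, while the bars of pan-neuronal markers (0.88) and macrophage markers (-1.31) lie farther out on either side. The lists not drawn had medians of -0.52 for perineurial and fibroblast markers, close to the 9 genes, -0.75 for red blood cell markers and 6.15 for keratinocyte markers.

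The regulators that act with Egr2 included calls in both directions. Of 20 measured, 5 were called lower, 2 higher and 13 were not called, beside 14.9% lower and 17.3% higher over all measured genes. Their median log2 ratio was -0.18, and under satellite glia scaling it was 0.17, below the 0.38 of all measured genes. Sox10, the factor that defines the Schwann cell lineage, had a ratio of 0.91 (0.856 to 0.974). Pou3f1, also named Oct6, which induces Egr2 in development, had 568 counts in the AEW library and 201 in the control and was 1.73-fold higher (1.47 to 2.04). Yy1, an activator of Egr2 transcription, was 1.78-fold lower (1.59 to 1.99), and Wwtr1, the TEAD coactivator TAZ, was 1.80-fold lower (1.64 to 1.98). The other regulators called lower were Nfatc4, Tead1 and Yap1, with ratios of 0.61, 0.63 and 0.66. Nrg1, the axonal growth factor that sets myelin thickness, was 2.10-fold higher at 79 counts in the AEW library and 23 in the control (1.31 to 3.50). Erbb3, its receptor in Schwann cells, had 2 counts in the AEW library and 0 in the control, where 0 allows up to 0.331 CPM, so no comparison was possible.

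Most genes of immature and repair Schwann cells were not called in either direction. Of 14 measured, 2 were called higher, none was called lower and 12 were not called, beside 17.3% higher and 14.9% lower over all measured genes. Their median log2 ratio was -0.20, and it was above 0 under satellite glia and other peripheral myelin gene scaling and, over 12 genes, with a minimum of 100 counts. Ngfr, the low-affinity neurotrophin receptor, which sensory neurons also express, was 2.69-fold higher (2.55 to 2.84), and L1cam, an adhesion protein of neurons and non-myelinating Schwann cells, was 1.73-fold higher (1.60 to 1.87). Jun, the main factor of the repair state, had a ratio of 0.76 (0.697 to 0.825), Sox2, a factor of immature Schwann cells, of 0.71 (0.594 to 0.849), and Shh, a signal made by injured Schwann cells, of 1.45 (1.02 to 2.11), none of them called. Pax3, Gdnf, Artn and Tgfb1 were too low to be measured, with between 0 and 8 counts in the AEW library and between 2 and 9 in the control.

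Most lipid synthesis genes were not called. Of 26 genes of cholesterol, fatty acid and ceramide synthesis, 6 were called higher, 1 was called lower and 19 were not called. The shares over all measured genes were 17.3% higher and 14.9% lower. Their median log2 ratio was 0.10. Srebf2, the transcription factor of cholesterol synthesis, was 2.61-fold higher (2.07 to 3.33) and Dhcr7, a late enzyme of that pathway, 2.38-fold higher (2.03 to 2.80). Insig1, a brake on that pathway, was 1.73-fold lower (1.48 to 2.02). Closer to Ugt8a, Cers2, which makes the very long chain ceramides of myelin, had a ratio of 0.90 (0.855 to 0.956). Fa2h and Gal3st1 are not among the 26 and were counted with the further peripheral myelin genes above. Fa2h, which hydroxylates fatty acids of myelin, had a ratio of 1.08 (0.986 to 1.18). Gal3st1, which turns galactosylceramide into sulfatide, had 71 counts in the AEW library and 59 in the control, a ratio of 0.74 (0.513 to 1.06).

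General markers of the cells that could carry the myelin transcripts were set beside them. The shares called over all measured genes were 14.9% lower and 17.3% higher. S100b, made by Schwann cells and satellite glia, had 35407 counts in the AEW library and 20235 in the control, a ratio of 1.07 (1.05 to 1.09). Of 7 measured pan-Schwann markers, 2 were called lower, Foxd3 at a ratio of 0.51 and Postn at 0.64, and 5 were not called. Their median log2 ratio was 0.10, and with no filter on low counts it was -0.18, with 3 of 8 called lower. Cdh19, with 2 counts in the AEW library and 16 in the control, was below the measured limit. Of 10 markers of non-myelinating Schwann cells, 2 were called lower, Matn2 and Chl1, and none higher (median -0.19). Of 14 satellite glia markers 3 were called lower, among them Ednrb and Slc1a3, and none higher (median -0.35). The satellite glia markers did not share 1 direction, with 8 of the 14 below 1, beside 47.8% of all measured genes. Fabp7 had a ratio of 1.18 (1.115 to 1.251) and Gja1 of 1.20 (1.05 to 1.38), neither called. The median of the non-myelinating Schwann cell markers was 0.16 under satellite glia scaling and close to 0 after GC correction.

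Oligodendrocytes are another possible source of Mbp, Mag, Mal and Ugt8a, should spinal cord tissue have been taken with the ganglia. Their defining markers were low, with 49 counts of Mog, 77 of Mobp, 12 of Opalin and 8 of Hapln2 in the AEW library, and 57 of Mog, 101 of Mobp, 15 of Opalin and 15 of Hapln2 in the control. Counts per Mog count rest on few Mog counts, and no interval was computed for them. The Mog ratio was 0.53 (0.351 to 0.783). That interval includes the ratios of Mbp, Mal and Ugt8a (0.76, 0.60 and 0.46), but not that of Mag (0.92). For Mbp, Mal and Ugt8a the direction per Mog count may thus be counting error. In the AEW library the counts per Mog count were 1164 for Mbp, 19.1 for Mag, 136 for Mal and 43.2 for Ugt8a. In the control they were 800.4 for Mbp, 10.9 for Mag, 119 for Mal and 49.0 for Ugt8a. All 19 oligodendrocyte markers together had 214 CPM in the AEW library and 289 CPM in the control, and they include Cldn11, which is also made outside the central nervous system. Of the 19, 5 were called lower, 2 were called higher and 12 were not called, beside 14.9% lower and 17.3% higher over all measured genes. The share of myelin reads that came from such cells was not tested.

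Genes of the axon inside the sheath were often called higher in the AEW library. Of 20 genes of large myelinated axons and their nodes, 9 were called higher and none lower, with a median log2 ratio of 0.57. Of 20 pan-neuronal markers 13 were called higher (median 0.88). The shares over all measured genes were 17.3% higher and 14.9% lower. Cntn2, an adhesion protein beside the node that both axon and glia make, was 4.01-fold higher (3.65 to 4.41), and Cntnap1, the axonal partner at the paranode, 1.77-fold higher (1.46 to 2.16). Nefh, the heavy neurofilament of large axons, had a ratio of 1.29 (1.26 to 1.32). Ratios below 1 were found for 4 of the 20 axon genes and 2 of the 20 pan-neuronal markers, beside 47.8% of all measured genes. Among the 4 were Runx3 at 0.74 (0.590 to 0.937) and Calb1 at 0.75 (0.627 to 0.907). The 2 pan-neuronal markers were Map2 at 0.86 (0.804 to 0.918) and Celf4 at 0.88 (0.824 to 0.933). None of these was called. Scaled on the pan-neuronal markers, which lowers every log2 ratio by 0.88, all 9 myelin genes were called lower, between -1.99 for Ugt8a and -0.99 for Prx, as were 9626 of all measured genes.

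**Figure D4:**
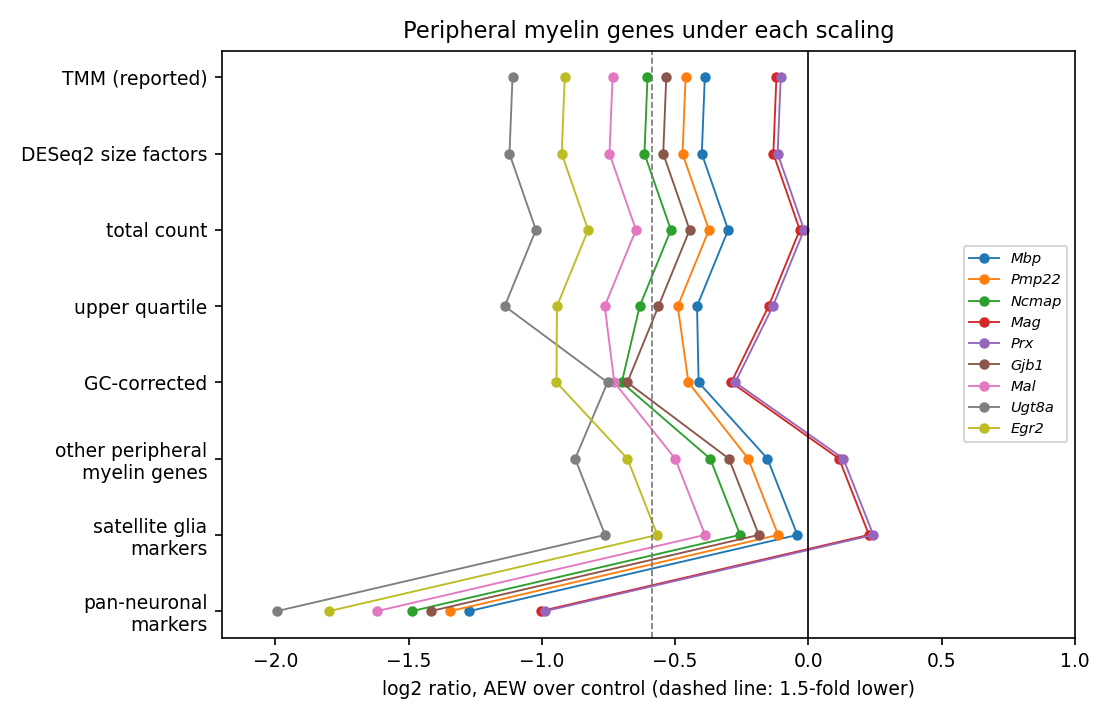
Log2 ratio of AEW over control for the 9 genes (1 colour and line per gene) under 8 scalings or corrections, with a dashed line at 1.5-fold lower. Ugt8a stays beyond the dashed line under every one shown, from -1.99 to -0.75, while Mag and Prx cross 0 under the other peripheral myelin gene and satellite glia scalings.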

How the data were processed

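RNA was sequenced from 1 pooled library per group. Trizol extraction, 500 ng of RNA per library and a Lexogen Quant-Seq kit are stated per the labels' protocols. Bowtie2, bedtools and mm10 are named in the submitters' processing notes. Not given in the sources used here are versions, annotation, strand use, whether reads come from transcript ends, and how multiply matching or duplicate reads were handled. The authors deposited raw counts, 1 whole number for each gene symbol.

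From these counts TMM library sizes (edgeR 4.0.16, R 4.3.3), scaled CPM, AEW to control ratios and exact conditional binomial (Clopper-Pearson) intervals (scipy 1.17.1) were computed across all genes. Replicate-based tests could not be fitted. CPM is not per transcript length, so counts of different genes, their sums and counts per Mog count do not rank transcript levels between genes. Reads carried no molecular identifiers, and intervals cover counting error only. A count of 0 allows 3 counts, which is 0.202 CPM in the AEW library and 0.331 CPM in the control. The calls were tested only on simulated Poisson counts with known changes, which held no difference between pools, dissections or cell mixtures. That test does not show how the calls behave between real pools.

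The 9 genes, the 14 companion lists (237 symbols, 236 matched) and the tests were chosen with earlier results of these data known. Named genes are the 9, Pmp2, Sox10, Pou3f1, Ngfr, Jun and Mog, and from each list the 2 genes with the highest lower bound and the 2 with the lowest upper bound of the ratio interval; any other was named after its value was seen, and some genes the rule picks are not reported here. Loci are from GENCODE M21 on mm10, 1-based. In that annotation Mbp, Prx and Ncmap overlap a gene on the opposite strand (Rpl21-ps8, Gm15541 and Gm12991), none of them a row of the tables, and without strand such reads cannot be told apart. GC content is that of the longest transcript, fitted with a lowess curve (statsmodels 0.14.6, span 0.3) over 14176 genes. If reads came from transcript ends only, the GC content of the sequenced part could differ from it.

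Alternatives were DESeq2 1.42.0 size factors, total count and upper quartile scaling, no or a higher count minimum, thinning, stricter calls, totals without Rn45s, haemoglobin and keratin rows, GC correction and scaling on pan-neuronal or satellite glia markers. Scaling on the other peripheral myelin genes was added after the data were seen.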

Additional observations from a re-analysis of the deposited data

How the results depend on the processing

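All 9 ratios stayed below 1 under 12 of 14 alternatives. Alternatives that changed only the count minimum or the call rule left every ratio as it was, and pan-neuronal scaling lowers every ratio. None of these could have put a ratio above 1. Scaling on satellite glia markers or on the other peripheral myelin genes put Mag and Prx above 1. The number called lower was 4, and it was 0 with the limit of 3 scaled median absolute deviations, 1 at 2-fold, 3 when the interval had to exclude 1.5-fold, 3 under total count scaling, 5 after GC correction, 1 under satellite glia scaling, 2 under scaling on the other peripheral myelin genes and 9 under pan-neuronal scaling; the other alternatives left it at 4. No alternative called a member higher. The median log2 ratio was -1.42 under pan-neuronal and -0.19 under satellite glia scaling, which shift all measured genes by -0.88 and 0.35. Without Rn45s, haemoglobin and keratin rows the 9 genes took 0.982% of AEW and 1.32% of control counts. Ugt8a was called lower under 13 of 14 alternatives, Egr2 under 11, Mal under 10 and Ncmap under 8. These numbers include the changed count minimums and pan-neuronal scaling, which could not end a lower call of these genes.

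Over all measured genes, 1327 were called higher and 1071 lower when the interval had to exclude 1.5-fold, 214 and 74 with the deviation limit, 1223 and 1018 at 2-fold, 459 and 9626 under pan-neuronal scaling, and 5051 and 998 under satellite glia scaling. The scalings change every ratio by construction; the cause of the other differences was not tested. No paired analysis was possible because each group has 1 library. Depth limits Egr2 and Gjb1 most, with 304 and 276 counts in the AEW library and 350 and 244 in the control.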
